A study of Rattus norvegicus with 6 samples.

Results

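The 9 genes described here encode interferon regulatory factors (IRFs) and signal transducers and activators of transcription (STATs): Irf1, Irf3, Irf5, Irf7, Irf8, Irf9, Stat2, Stat3 and Stat6. They were selected by symbol from a table of 21028 gene models, and each symbol matched 1 row. The selection was made with their FPKM in this comparison known, so their values are given as a description and without a test. All 9 passed the filter of the fit across all genes, an average of 1 FPKM or more. In 4 of them (Irf1, Irf7, Irf9 and Stat2) each library of the PLLARS_US group exceeded each of the PCL group, where 4.33% of all 13720 genes did so. In 1, Irf3, each was lower, where 10% of all genes did so, and in the other 4 the groups overlapped.

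IRFs are DNA-binding proteins that recognise the interferon-stimulated response element (ISRE), a repeat of GAAA. IRF3 and IRF7 are phosphorylated by kinases downstream of nucleic acid sensors and switch on interferon genes. STATs wait in the cytoplasm until Janus kinases at a cytokine receptor phosphorylate them, and then move to the nucleus. STAT2 and IRF9 belong to ISGF3, the complex that carries the signal of type I interferon to the ISRE, and many STATs bind the gamma-activated site (GAS), an inverted repeat of TTC and GAA. In injured nerve, STAT3 is known as a transducer of interleukin 6 family cytokines in Schwann cells and axons, and IRF5 and IRF8 are known as factors of macrophages and their relatives.

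RNA sequencing was performed on sciatic nerve from 6 female rats (genotype WT) with a repaired nerve defect. The PCL group had 3 libraries, from repair with a PCL conduit without ultrasound. The other group, PLLARS_US, had 3 libraries, from repair with a PLLARS conduit with ultrasound. The series title presents the device as piezoelectric, biodegradable and based on Rochelle salt. Conduit and ultrasound changed together, so their parts in any difference cannot be told apart. Rat strain, age and time after surgery are not given in the sources used here. Values were FPKM, fragment counts scaled to gene length and library size, which can be compared between genes.

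The steps between FPKM values of small single-exon RNA models placed the depth at 15300000 to 16670000 fragments per library. Schwann cell markers were present in every library, with 120 to 334 FPKM of S100b, a calcium-binding protein of these cells. The libraries differed in tissue content across the groups. On a log2(FPKM + 1) scale skeletal muscle markers averaged 9.68 in replicate 3 of PCL and 10.4 in replicate 1 of PLLARS_US, against 1.43 to 7.83 in the others. Neutrophil markers stood at 3.88 in PLLARS_US replicate 1 and at 1.92 to 2.51 elsewhere, and red blood cell markers ran from 3.12 to 9.90. In limma 0 of 13720 genes (0%) had an adjusted p under 0.05 between the groups. An unadjusted p under 0.05 was found for 960 genes (7%), of which 273 were higher and 687 lower in PLLARS_US; under median-ratio scaling the split was 414 and 520. With array weights, which let limma weigh libraries by their spread, 118 genes were called.

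Promoter sequence shows which members carry the motifs that IRFs and STATs bind, and is given for the 4 members with a match. RefSeq windows of the rat assembly GRCr8, from 250 bases before the start of transcription to 50 after it, were found for all 9 members. They were searched on both strands for the ISRE core GAAANNGAAA, the GAS motif TTCNNNGAA and the STAT6-type spacing TTCNNNNGAA. In all 33469 windows of the table, 3.92% held the ISRE core, 8.87% the GAS and 7.28% the STAT6-type spacing. Matches are in capitals, 5′ to 3′ on the strand of the gene. The Irf7 window (chr1:205799974-205800273, minus strand) held the ISRE core in reverse orientation, 69 to 60 bases before the start. The Irf9 window (chr15:33065586-33065885, plus strand) held a STAT6-type site at 247 to 238 bases and a GAS at 99 to 91 bases before the start. The Irf1 window (chr10:38417685-38417984, plus strand) held a GAS at 142 to 134 bases, and the Irf8 window (chr19:65699034-65699333, plus strand) held a GAS at 180 to 172 bases and another at 161 to 153 bases.
Irf7: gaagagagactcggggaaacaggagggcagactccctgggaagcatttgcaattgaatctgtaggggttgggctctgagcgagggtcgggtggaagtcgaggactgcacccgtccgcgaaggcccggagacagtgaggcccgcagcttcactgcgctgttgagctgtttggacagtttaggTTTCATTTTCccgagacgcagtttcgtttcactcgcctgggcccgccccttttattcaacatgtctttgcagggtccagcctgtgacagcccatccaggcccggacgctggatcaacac
Irf9: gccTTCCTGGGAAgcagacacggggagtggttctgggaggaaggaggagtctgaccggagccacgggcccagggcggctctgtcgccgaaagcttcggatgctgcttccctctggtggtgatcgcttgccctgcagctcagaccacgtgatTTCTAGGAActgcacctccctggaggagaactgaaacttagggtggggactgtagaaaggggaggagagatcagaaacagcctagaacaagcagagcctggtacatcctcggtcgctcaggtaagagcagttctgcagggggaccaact
Irf1: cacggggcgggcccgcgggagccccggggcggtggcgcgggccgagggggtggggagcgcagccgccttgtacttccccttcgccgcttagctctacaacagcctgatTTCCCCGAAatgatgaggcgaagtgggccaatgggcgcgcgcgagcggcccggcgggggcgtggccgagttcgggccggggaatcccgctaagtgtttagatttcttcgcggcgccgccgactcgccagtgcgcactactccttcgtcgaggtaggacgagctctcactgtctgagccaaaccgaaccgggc
Irf8: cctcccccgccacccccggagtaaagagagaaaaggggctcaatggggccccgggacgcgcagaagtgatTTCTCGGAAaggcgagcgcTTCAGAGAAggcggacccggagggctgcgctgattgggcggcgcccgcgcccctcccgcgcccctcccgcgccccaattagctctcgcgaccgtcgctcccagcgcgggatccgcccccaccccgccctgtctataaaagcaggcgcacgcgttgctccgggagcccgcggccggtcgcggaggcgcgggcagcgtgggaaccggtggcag
No match to these letters was found in the windows of Irf3, Irf5, Stat2, Stat3 and Stat6. A match is a stretch of letters and not a measured binding site, and binding was not measured in these samples. The genome build of the positions in the deposited table could not be settled, so the positions below, taken from that table, must not be read against the GRCr8 windows.

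Irf7, the amplifier of type I interferon production that is itself interferon-induced, had the largest difference of the 9 members. It had 25.7, 79.1 and 35.5 FPKM in PCL replicates 1 to 3 and 415, 156 and 383 FPKM in PLLARS_US replicates 1 to 3. The groups did not overlap, and the lowest PLLARS_US library, replicate 2, was closest to the highest PCL library, also replicate 2. The means were 46.7 ± 28.4 and 318 ± 141 FPKM (SD, n = 3 each), 6.80-fold apart, with a difference of 2.78 on log2(FPKM + 1). Irf7 was also the least even member within a group, with a coefficient of variation of 60.8% in PCL and 44.3% in PLLARS_US. PLLARS_US replicate 1, where Irf7 was highest, was also the library richest in neutrophil, macrophage and skeletal muscle markers. The mean level of neutrophil markers on log2(FPKM + 1) was 2.30, 2.51 and 1.92 in PCL replicates 1 to 3. In PLLARS_US replicates 1 to 3 it was 3.88, 2.02 and 1.96. Macrophage markers averaged 6.70 in PLLARS_US replicate 1 and 6.26 to 6.39 in the other libraries. The part of any of these cell types in the Irf7 level was not tested. Without the libraries richest in muscle RNA (PCL replicate 3 and PLLARS_US replicate 1) the difference was 2.41. Irf7 (ENSRNOG00000017414) spanned 214248837 to 214252456 of chromosome 1 (minus strand) and overlapped the opposite-strand gene Phrf1 by 65 bases. Phrf1 had a mean of 13.2 FPKM in PCL and 12.1 in PLLARS_US.

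The ISGF3 members Stat2 and Irf9 were both higher in every PLLARS_US library than in any PCL library. Stat2, the STAT that is dedicated to interferon signalling, had 20.7, 20.8 and 20.04 FPKM in PCL and 38.0, 33.3 and 35.3 in PLLARS_US. Its means were 20.5 ± 0.416 and 35.5 ± 2.38 FPKM, a 1.73-fold ratio and a log2 difference of 0.76. The gap of 12.5 FPKM between the highest PCL and the lowest PLLARS_US library exceeded the range within either group. Irf9, the DNA-binding subunit of ISGF3, had 26.8, 32.9 and 25.7 FPKM in PCL and 49.3, 55.7 and 48.6 in PLLARS_US. Its means were 28.4 ± 3.89 and 51.2 ± 3.92 FPKM, a 1.80-fold ratio and a log2 difference of 0.83. Both members kept close values within a group, unlike Irf7. In bulk tissue more cells of a type and more RNA per cell cannot be told apart, and this holds for every level given here. Stat2 (ENSRNOG00000031081) spanned 2691369 to 2707741 of chromosome 7 (plus strand) and Irf9 (ENSRNOG00000019478) 34282936 to 34288138 of chromosome 15 (plus strand), neither with an overlapping gene model in the table.

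Irf1, an early target of interferon gamma that drives antigen presentation genes, had the smallest difference of the members without overlap. It had 19.7, 22.9 and 19.9 FPKM in PCL and 25.6, 28.4 and 28.2 in PLLARS_US. The means were 20.9 ± 1.81 and 27.4 ± 1.56 FPKM, a 1.31-fold ratio and a log2 difference of 0.38. The gap between PCL replicate 2 and PLLARS_US replicate 1, the nearest libraries of the groups, was 2.67 FPKM. Irf1 (ENSRNOG00000008144) spanned 39109522 to 39116531 of chromosome 10 (plus strand).

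Irf3, which is present in most cells before any stimulus and starts the first wave of interferon beta, was the member that was lower in every PLLARS_US library. It had 52.3, 45.9 and 37.3 FPKM in PCL and 23.4, 33.7 and 28.6 in PLLARS_US. The means were 45.2 ± 7.52 and 28.6 ± 5.15 FPKM, a log2 difference of -0.64. The nearest libraries, PCL replicate 3 and PLLARS_US replicate 2, were 3.60 FPKM apart, less than the SD of either group. Irf3 (ENSRNOG00000043388) spanned 100992405 to 100997198 of chromosome 1 (plus strand) and shared 865 bases with Bcl2l12 on the opposite strand. Bcl2l12 had a mean of 7.16 FPKM in PCL and 6.26 in PLLARS_US. The library kit named in the labels does not state strand. Reads from that stretch, and from the other overlaps given here, therefore cannot be assigned to a gene.

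**Figure D1:**
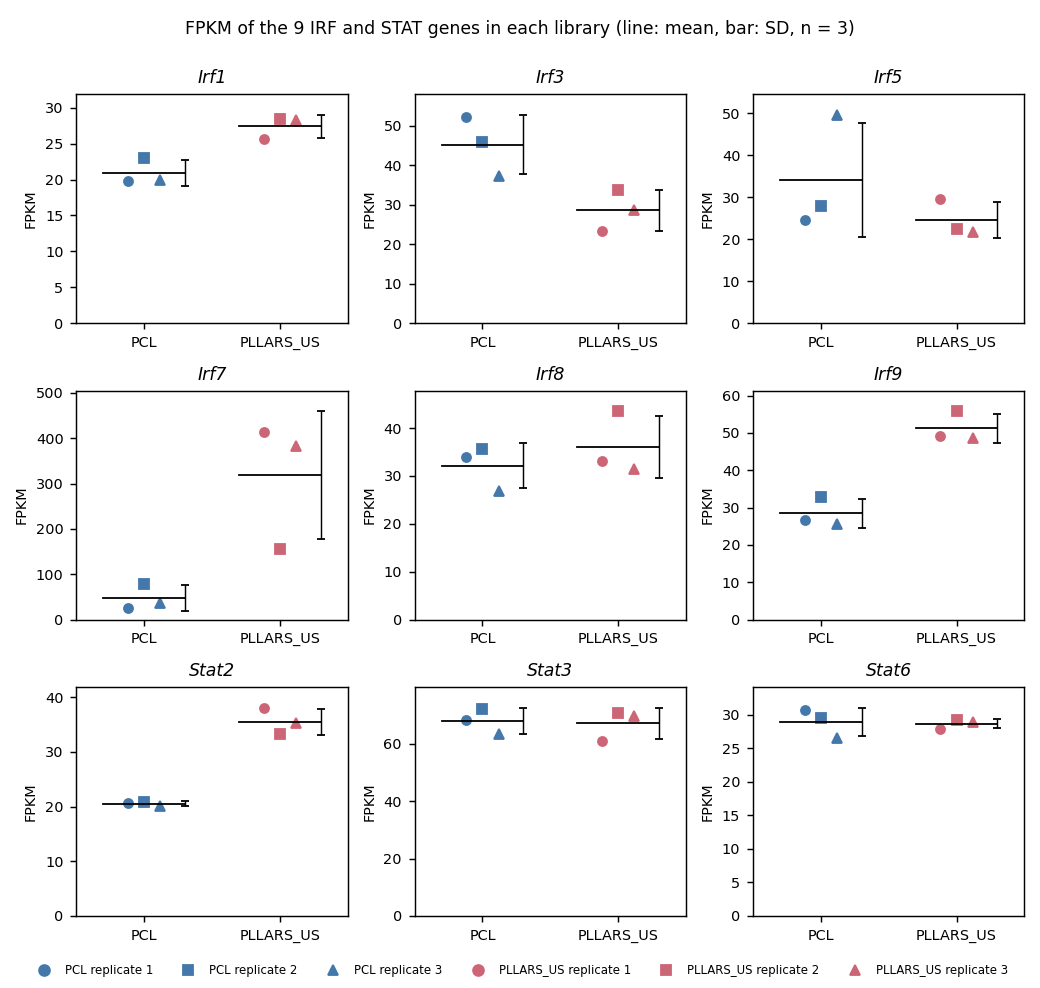
FPKM of each member (vertical axes, linear from 0) in the 3 PCL libraries (blue) and the 3 PLLARS_US libraries (red), with marker shape giving the replicate, lines the means and bars the SD. Irf1, Irf7, Irf9 and Stat2 have no red point at or below a blue one, Irf3 has every red point below the blue ones, and the other 4 overlap.

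The ratio of Irf7 to Irf3 within a library does not depend on how libraries are scaled. It was 0.490, 1.72 and 0.951 in PCL replicates 1 to 3 and 17.7, 4.63 and 13.4 in PLLARS_US replicates 1 to 3. Irf3 was thus the more abundant of the pair in PCL replicates 1 and 3, and Irf7 in PCL replicate 2 and in every PLLARS_US library. Irf9 to Irf3 was 0.511, 0.717 and 0.688 in PCL and 2.102, 1.65 and 1.70 in PLLARS_US. Stat2 to Stat3 was 0.304, 0.288 and 0.316 in PCL and 0.623, 0.469 and 0.506 in PLLARS_US. In all 3 ratios the groups did not overlap. For Irf7 to Irf3 and Irf9 to Irf3 this was fixed by the levels given above. Irf7 and Irf9 were higher and Irf3 was lower in every PLLARS_US library. Stat2 to Stat3 largely restates Stat2, since Stat3 was even across libraries. All 3 ratios rest on members chosen for this contrast and add no support to their levels.

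**Figure D2:**
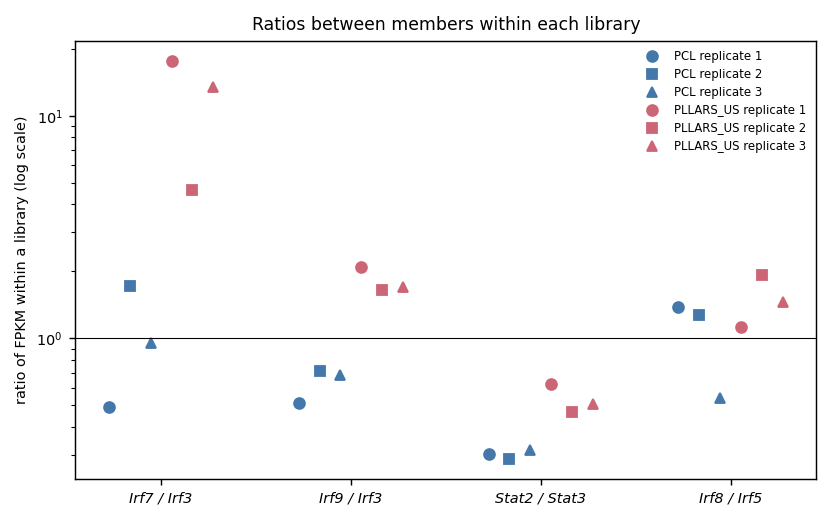
Ratios of FPKM between pairs of members within each library (log axis), with blue for PCL, red for PLLARS_US and marker shape for the replicate. The first 3 ratios separate the groups, while Irf8 to Irf5 overlaps. Irf7 to Irf3 is between 0.490 and 1.72 in PCL and between 4.63 and 17.7 in PLLARS_US. The separation restates the levels of the members and is no further result.

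Irf5 and Irf8, both factors of the myeloid lineage, overlapped between the groups. Irf5, which acts downstream of Toll-like receptors in inflammatory macrophages, had 24.6, 27.9 and 49.6 FPKM in PCL and 29.5, 22.5 and 21.7 in PLLARS_US. Its highest value was in PCL replicate 3, and without that library its log2 difference was -0.10 in place of -0.40. Of the 12 macrophage markers, 3 were highest in that library and 5 were lowest there, and their mean level was 6.26 to 6.70 on log2(FPKM + 1) over the libraries. The highest there included Cd68 (529 FPKM against 107 to 464 elsewhere), and the lowest included the resident macrophage marker Cd163 (9.49 against 26.6 to 71.2) and Adgre1 (23.7 against 32.5 to 44.0). These 3 were picked out after their values were seen, and the part of macrophage content in the Irf5 level was not tested. Irf5 (ENSRNOG00000007437) spanned 56805132 to 56820543 of chromosome 4 (plus strand) and shared 521 bases with Tnpo3 on the opposite strand. Tnpo3 had a mean of 19.3 FPKM in PCL and 19.9 in PLLARS_US.

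Irf8, which is required for monocyte and dendritic cell development, had 34.0, 35.6 and 26.9 FPKM in PCL and 33.1, 43.5 and 31.4 in PLLARS_US. Its lowest value was in PCL replicate 3 and its highest in PLLARS_US replicate 2. The 7 dendritic cell markers had their lowest mean level in the first of these libraries, 1.63 on log2(FPKM + 1), and their highest in the second, 2.45. B cell markers (1.23 and 1.92) and endothelial markers (3.78 and 4.77) had their lowest and highest levels in the same libraries, and Schwann cell and fibroblast markers were also lowest in PCL replicate 3. The part of any of these cell types in the Irf8 level was not tested. Xcr1 and Siglech among the dendritic cell markers stayed at or under 1.87 FPKM. The Irf8 means were 32.2 ± 4.65 and 36.0 ± 6.52 FPKM, closer than the SD within either group. The log2 difference was 0.15, and 0.014 without PLLARS_US replicate 2. Irf8 (ENSRNOG00000017869) spanned 54314865 to 54336640 of chromosome 19 (plus strand).

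**Figure D3:**
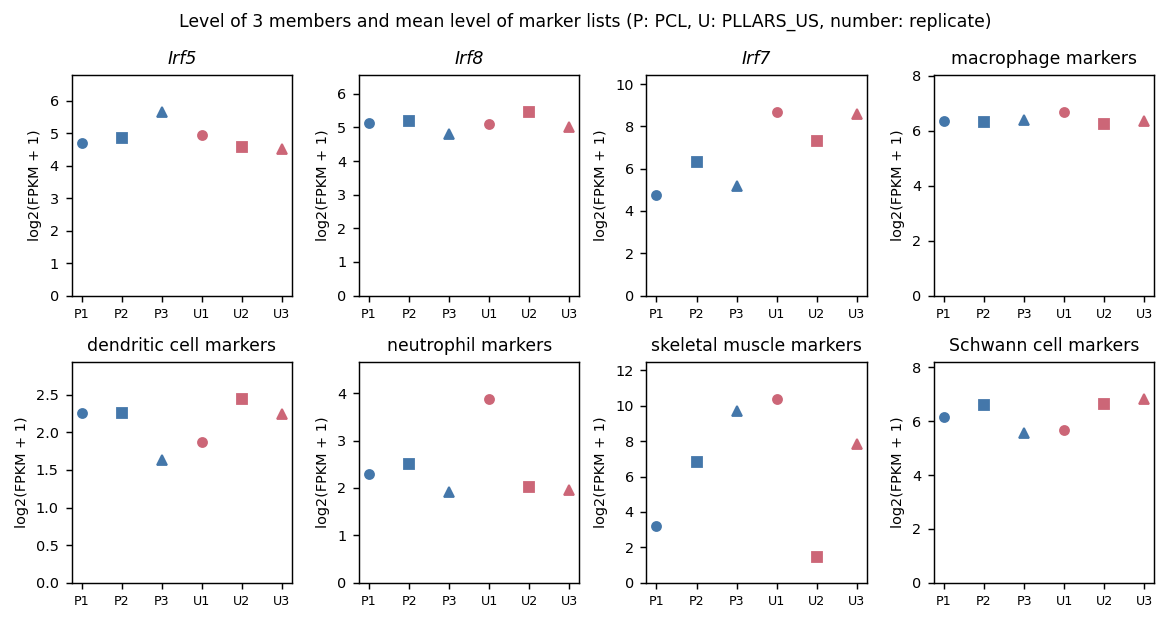
Level on log2(FPKM + 1) of Irf5, Irf8 and Irf7 and mean level of 5 lists of cell type markers in each library (P, PCL in blue; U, PLLARS_US in red; the number is the replicate). Irf5 is highest and Irf8 lowest in PCL replicate 3. Dendritic cell markers (1.63) and Schwann cell markers (5.55) are both lowest there, and skeletal muscle markers are high (9.68). Neutrophil markers stand out in PLLARS_US replicate 1 (3.88).

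Stat3 and Stat6 were the most even members. Stat3, which carries signals of interleukin 6, LIF and interleukin 10, had 68.2, 72.3 and 63.4 FPKM in PCL and 61.0, 70.9 and 69.7 in PLLARS_US. Its means of 68.0 ± 4.48 and 67.2 ± 5.39 FPKM differed by less than either SD, and its highest library exceeded its lowest by 1.19-fold. Stat6, the factor of interleukin 4 and interleukin 13, had 30.6, 29.5 and 26.5 FPKM in PCL and 27.9, 29.3 and 28.9 in PLLARS_US. Its means were 28.9 ± 2.11 and 28.7 ± 0.709 FPKM, and its highest library exceeded its lowest by 1.15-fold. For both, the sign of the log2 difference (-0.017 and -0.0088) changed among the alternatives, which ran from -0.066 to 0.050 for Stat3 and from -0.067 to 0.048 for Stat6. These values concern mRNA, while STAT activity depends on phosphorylation, which was not measured. Stat3 (ENSRNOG00000019742) spanned 88790408 to 88842233 of chromosome 10 (minus strand). Stat6 (ENSRNOG00000025023) spanned 70946228 to 70964484 of chromosome 7 (plus strand) and shared 2910 bases with Nab2 on the opposite strand. Nab2 had a mean of 8.63 FPKM in PCL and 5.91 in PLLARS_US. As for Irf3, reads from the shared stretch cannot be assigned to a gene.

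The order of the members by level differed between the groups. In the PCL group it ran Stat3, Irf7, Irf3, Irf5, Irf8, Stat6, Irf9, Irf1 and Stat2, from 68.0 to 20.5 FPKM. Only Irf9 and Irf1 were neighbours that differed by more than the larger of their SDs. In the PLLARS_US group the order was Irf7, Stat3, Irf9, Irf8, Stat2, Stat6, Irf3, Irf1 and Irf5, from 318 to 24.6 FPKM. There the steps from Irf7 to Stat3, Stat3 to Irf9, Irf9 to Irf8 and Stat2 to Stat6 exceeded the larger SD of the neighbours, and the other 4 did not. Irf7 was the most abundant member in each PLLARS_US library and made up 59.0%, 33.0% and 56.7% of their summed FPKM, against 8.48%, 21.5% and 11.6% in PCL replicates 1 to 3. Stat3 held rank 1 in PCL replicates 1 and 3 and rank 2 in all other libraries. The summed FPKM of the 9 members was 303, 367 and 305 in PCL and 703, 474 and 676 in PLLARS_US.

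The family genes outside the 9 members were tested in the limma fit over all genes. None of the 4 reported here passed, and 1 was lower at an unadjusted p under 0.05, as were 5.01% of all genes. That gene was Stat5a, a transducer of growth hormone and several interleukins that lies 1351 bases from Stat3 in the deposited table. Stat5a had 12.3, 12.1 and 17.4 FPKM in PCL and 8.58, 9.33 and 9.38 in PLLARS_US, a log2 difference of -0.55 (SE 0.17, limma adjusted p 0.586). Its groups did not overlap, with all PLLARS_US libraries lower, as in 10% of all genes. Its neighbour and close paralog Stat5b had 29.2 ± 4.46 and 29.2 ± 7.15 FPKM, a log2 difference of -0.014 (SE 0.22). Reads shared by these paralogs could be split between them by the counting. Irf2, which competes with IRF1 at its sites, had 17.0 ± 1.17 and 16.6 ± 0.594 FPKM. Irf4, a factor of lymphocytes and alternatively activated macrophages, had its highest value, 8.64 FPKM, in PCL replicate 3 and 2.30 to 5.18 FPKM in the other libraries. The limma adjusted p of Irf2, Irf4 and Stat5b ran from 0.935 to 0.998.

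**Figure D4:**
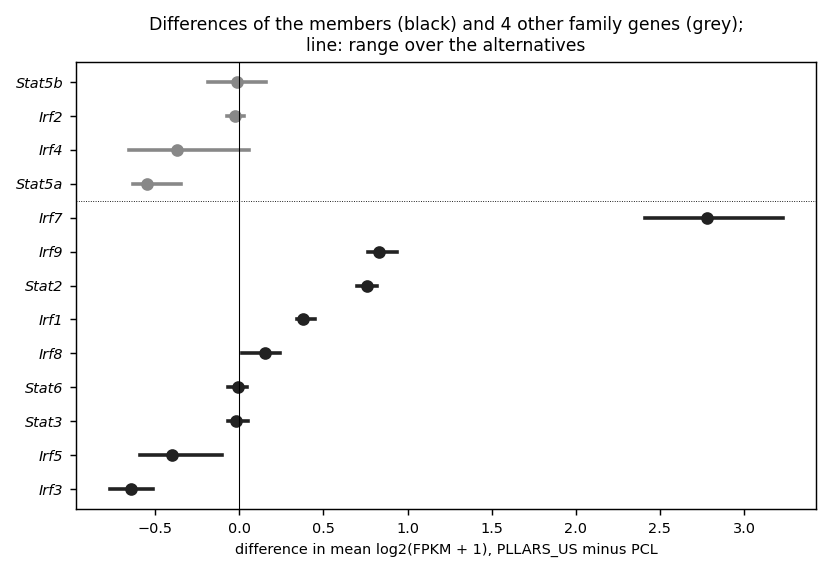
Difference in mean log2(FPKM + 1), PLLARS_US minus PCL (horizontal axis), of the 9 members (black) and 4 other family genes (grey), with lines giving the range over the alternative settings. Irf7 is at 2.78 with a range of 2.41 to 3.23, Irf9, Stat2 and Irf1 lie right of 0 and Irf3 and Irf5 left of 0 over their whole range.

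The steps that lead to IRF and STAT activation were read from lists of pathway genes, chosen with earlier results of these data known. Of 10 interferon ligand symbols sought, 4 were found, and these were at the detection limit. Ifnb1 was listed at 0 in the PCL libraries and in PLLARS_US replicate 2. It had 0.220 and 0.461 FPKM in PLLARS_US replicates 1 and 3. Ifng had at most 0.376 FPKM in any library. None of the 4 ligand genes found reached the filter. No row matched Ifna1, Ifna2, Ifna4, Ifna5, Ifnl1 or Ifnl3, so the levels of interferon alpha and lambda genes are not known here. Of the 10 interferon receptor and Janus kinase genes, 0 passed in limma, 9 were lower and 1 higher, and the median log2 difference was -0.23, against -0.042 for all genes tested. Tyk2, the kinase bound to the type I interferon receptor, had the smallest p, with 13.9 ± 1.86 and 10.2 ± 0.965 FPKM and a log2 difference of -0.40 (SE 0.15, adjusted p 0.651). Jak1, the kinase common to all interferon receptors, was level, with 62.3 to 82.4 FPKM over the 6 libraries.

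Of the 24 sensor, adaptor and kinase genes upstream of IRF3, IRF5 and IRF7, 0 passed in limma. An unadjusted p under 0.05 was found for 4 higher genes, where 1.99% of all genes were at that level and higher, and for 1 lower gene, where 5.01% were. The list's median log2 difference was -0.038. The 4 higher genes were the RNA sensors Ifih1 (log2 difference 1.12, SE 0.14), Ddx58 (1.61, SE 0.20) and Dhx58 (1.41, SE 0.24) and the Z-nucleic acid sensor Zbp1 (1.65, SE 0.29), with limma adjusted p from 0.214 to 0.258. Ddx58 had 6.95, 7.11 and 6.25 FPKM in PCL and 19.3, 19.8 and 30.4 in PLLARS_US. All 4 are known interferon-induced genes as well as sensors. The lower gene was Traf3, an adaptor between sensors and kinases, with 8.07, 8.49 and 9.53 FPKM in PCL and 5.84, 7.09 and 6.52 in PLLARS_US (log2 difference -0.37, SE 0.14, adjusted p 0.651). Ikbke, a kinase that phosphorylates IRF3 and IRF7, had 14.4, 10.4 and 11.1 FPKM in PCL and 7.71, 8.93 and 9.63 in PLLARS_US (log2 difference -0.40, SE 0.17, adjusted p 0.713). Its groups did not overlap. In this list that held for 3 lower genes (10% of all genes) and for 6 higher genes (4.33% of all genes). The related kinase gene Tbk1 had 16.5 to 25.3 FPKM and Mavs, the mitochondrial adaptor, 8.73 to 10.1 FPKM, both with overlap between the groups.

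Of the 25 ISGF3 targets, 24 were higher, 22 of them without overlap between the groups (4.33% of all genes), and the median log2 difference was 1.63. The exception was Ifit1, with 0.221, 5.38 and 4.29 FPKM in PCL and 1.06, 0.0897 and 0.0309 in PLLARS_US. Its groups overlapped (log2 difference -1.38, SE 0.69, limma adjusted p 0.793). At an unadjusted p under 0.05, 24 targets were higher (1.99% of all genes were higher at that level). After adjustment 0 passed, with a smallest limma adjusted p of 0.113. Because the lists were chosen with earlier results known, their counts beside the shares of all genes are a description and no test. Eif2ak2, the kinase that stops translation on double-stranded RNA, had 17.8, 18.9 and 15.7 FPKM in PCL and 36.3, 34.7 and 38.4 in PLLARS_US, a log2 difference of 1.03 (SE 0.12, adjusted p 0.214). Rtp4 had 9.04 ± 1.65 and 44.3 ± 10.9 FPKM, a log2 difference of 2.16 (SE 0.23, adjusted p 0.214). Of the 18 IRF1 targets tested, 15 were higher, 10 without overlap (4.33% of all genes), with a median of 0.36. At an unadjusted p under 0.05, 7 were higher (1.99% of all genes), and 0 passed after adjustment. Among them Gbp5, a guanylate-binding GTPase, had 8.80, 8.35 and 7.34 FPKM in PCL and 18.3, 18.2 and 29.8 in PLLARS_US. Psmb10, a subunit of the immunoproteasome, had 40.7 ± 2.60 and 56.4 ± 2.77 FPKM, a log2 difference of 0.46 (SE 0.11, adjusted p 0.496). As background, IRF1 and ISGF3 can bind the same element.

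The lists tied to STAT3 and STAT6 had medians nearer to that of all genes. Of 20 STAT3 targets, 6 were higher and 14 lower, with a median of -0.22, and 0 passed in limma. Socs3, the feedback inhibitor induced by STAT3, had 102, 84.1 and 77.8 FPKM in PCL and 65.4, 58.7 and 65.2 in PLLARS_US, a log2 difference of -0.46 (SE 0.14, adjusted p 0.579). Cebpd, a leucine zipper factor and STAT3 target, went the other way with 75.1 ± 18.5 and 112 ± 14.8 FPKM (log2 difference 0.60, SE 0.22, adjusted p 0.669). Upstream of STAT3, 7 of the 14 genes tested were higher and 7 lower, with a median of 0.037 and 0 passing. Among them was Lifr, a receptor chain for LIF (log2 difference 0.76, SE 0.24, limma adjusted p 0.582). Lifr had 6.53, 8.71 and 6.46 FPKM in PCL and 9.48, 13.0 and 17.1 in PLLARS_US. Il10 had 6.41, 5.62 and 10.0 FPKM in PCL and 5.73, 0.363 and 1.22 in PLLARS_US, overlapping between the groups. Of 13 STAT6 targets, 7 were higher and 6 lower, with a median of 0.11 and 0 passing. Socs1, an inhibitor of Janus kinases, had 2.89 ± 0.428 and 4.63 ± 0.766 FPKM (log2 difference 0.53, SE 0.18, adjusted p 0.639). Upstream of STAT6 only 3 genes were tested, 1 higher and 2 lower, with a median of -0.34 and 0 passing. No row matched Il4 or Il13. Of 12 myeloid genes activated with IRF8, 3 were higher and 9 lower, with a median of -0.20 and 0 with an unadjusted p under 0.05.

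Of 15 cofactors and binding proteins 8 were higher and 7 lower, 1 was higher at an unadjusted p under 0.05 (1.99% of all genes), and 0 passed. Ifi35, an interferon-induced leucine zipper protein that pairs with NMI, had 25.7, 26.2 and 25.7 FPKM in PCL and 37.3, 38.1 and 41.6 in PLLARS_US (log2 difference 0.57, SE 0.11, limma adjusted p 0.287). Its partner Nmi had 30.7 ± 6.42 and 37.8 ± 3.40 FPKM, with overlap between the groups. Of 20 negative regulators 7 were higher and 13 lower, and 0 passed. At an unadjusted p under 0.05, 3 were higher (1.99% of all genes) and 1, Socs3, was lower (5.01%). The 3 higher genes were Socs1, Usp18 and Trim21, a ubiquitin ligase that had 7.75 ± 0.339 and 10.7 ± 0.961 FPKM (log2 difference 0.41, SE 0.12, limma adjusted p 0.565). Usp18, which blocks the type I interferon receptor, had 11.9, 19.8 and 42.6 FPKM in PCL and 74.8, 33.3 and 58.0 in PLLARS_US, with overlap through PCL replicate 3.

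**Figure D5:**
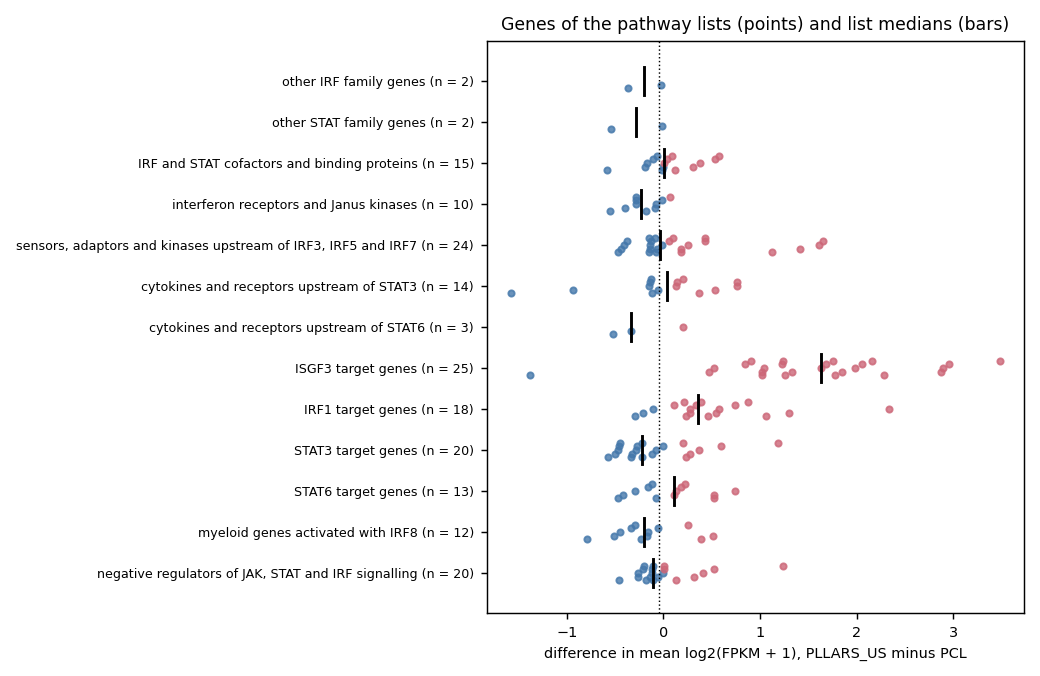
Difference in mean log2(FPKM + 1), PLLARS_US minus PCL (horizontal axis), of each tested gene in 13 pathway lists (points, red above 0 and blue below), with the list median as a bar and the median of all genes tested (-0.042) as a dotted line. The ISGF3 targets have a median of 1.63 and the IRF1 targets of 0.36, and the other medians lie between -0.34 and 0.11.

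Likeness of pattern was measured as the root mean square difference of log2(FPKM + 1), centred over the 6 libraries, among genes averaging 5 FPKM or more. Nearest to Irf7 were RT1-T24-3, a class I histocompatibility gene, at a distance of 0.19, and Mx1, an antiviral GTPase, at 0.43. RT1-T24-3 had 7.04, 26.4 and 10.8 FPKM in PCL and 96.8, 44.9 and 135 in PLLARS_US, so that replicate 2 was the highest PCL and the lowest PLLARS_US library, as for Irf7. Class I genes have near-identical copies, so its level is uncertain. The SD of Irf7 over the libraries was 1.68 on this scale. Nearest to Irf1 were RGD1564804 (0.042), Olfml2a (0.042) and Nfatc3 (0.053). Nearest to Irf9 was Parp14, an ADP-ribosyltransferase (0.099), followed by Adar, the RNA-editing adenosine deaminase (0.12), and nearest to Stat2 was Adar (0.064). Adar had 16.0, 18.3 and 15.2 FPKM in PCL and 31.0, 27.1 and 28.1 in PLLARS_US. Nearest to Irf3 were the splicing factor gene Srsf11 (0.065) and Taf1c (0.071), a subunit of a polymerase I factor. Srsf11 had 65.1, 63.5 and 51.5 FPKM in PCL and 31.7, 47.1 and 41.5 in PLLARS_US. Nearest to Irf5 was Steap3, a ferrireductase (0.030), with 47.5 FPKM in PCL replicate 3 and 21.4 to 28.7 elsewhere. Nearest to Irf8 was Xbp1, a factor of secretory cells (0.041), and nearest to Stat3 and Stat6 were Sec62 (0.015) and Khsrp (0.016). With 6 libraries, many genes can come close to a pattern, so these distances describe the libraries only.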

How the data were processed

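Groups and replicate numbers came from the sample titles, and columns were matched by library name. The authors deposited FPKM for each gene model and library; the unit is given by the workbook's name. Tools in the submitters' processing notes, listed without roles, are HISAT2 2.1.0, FastQC 0.11.5, DESeq 1.28.0 and StringTie 1.3.3b. The build listed there is hg38, a human one, although gene identifiers are rat. Per the labels' protocols, libraries were made from poly(A) RNA.

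Values were tested as log2(FPKM + 1) with limma 3.58.1 (R 4.3.3), fitting group alone with a trended prior to the 13720 genes that averaged 1 FPKM or more. P-values were adjusted by the Benjamini-Hochberg method, with a threshold of 0.05. Differences on this scale understate changes of low genes. The fit was also run on simulated data, and the outcome is not reported here. Members, lists and alternatives were chosen with earlier results of these data known. Named genes were the members, other family genes, up to 4 genes of smallest p per list, the 3 most alike genes per member, and markers; others were named after their values were seen. Some family and marker genes are not reported here. The labels give 6 rats and independent libraries but no map between them, so p-values measure only the spread between libraries. Promoters were from RefSeq (GRCr8).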

Additional observations from a re-analysis of the deposited data

How the results depend on the processing

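The members' log2 differences were recomputed under 15 alternatives for pseudocount, filter, scaling, pairing and left-out libraries. Irf1, Irf7, Irf8, Irf9 and Stat2 were higher and Irf3 and Irf5 lower in all 15, and Stat3 and Stat6 changed sign. The members without overlap numbered 4 higher and 1 lower, with 5 higher under median-ratio scaling, where the shares of all genes without overlap were 6.91% higher and 7.54% lower in place of 4.33% and 10%. Leaving out single libraries gave 4 higher throughout and 1 to 2 lower. There were 2 lower without PCL replicate 3 (20.6% of all genes) or without PLLARS_US replicate 1 (17.6%, with 16.9% higher), and 3 lower without both (29.4%, with 19.7% higher), since fewer libraries make non-overlap more common.

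In limma the count of genes called was 0 in all but 2 alternatives: 118 with array weights, and 3 (Mx1, Ifit3 and Isg15, named after their values were seen) without PLLARS_US replicate 2, so that leaving out single libraries gave 0 to 3. Genes at an unadjusted p under 0.05 numbered 414 higher under median-ratio scaling, 901 higher and 1926 lower with array weights, and 713 higher and 1154 lower without both PCL replicate 3 and PLLARS_US replicate 1. Leaving out single libraries gave 182 to 540 higher and 371 to 705 lower. The cause was not tested. The share higher was 28.4% in the main fit, 44.3% under median-ratio scaling and 41.9% under quantile normalization.

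With the replicate number as a block, genes at an unadjusted p under 0.05 numbered 174 higher and 369 lower, with 0 called. The deviations of same-numbered libraries from their group means correlated at -0.50, 0.15 and -0.32 across genes. These values showed no steady likeness by number, and they cannot show whether rats or batches were matched.

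Tested genes that changed sign were Irf2 (0.028 under median-ratio scaling, 0.0095 under quantile normalization, -0.076 to 0.019 without single libraries), Stat5b (0.043, 0.0089 and -0.19 to 0.16 likewise) and Irf4 (-0.65 to 0.055 without single libraries). With array weights, Ifi35, Ifih1, Ddx58, Dhx58, Rtp4, Eif2ak2, Gbp5 and Psmb10 passed among the genes named above. At the depth of about 15300000 to 16670000 fragments, the 4 interferon ligand genes found were at the limit of detection, and the reason was not tested.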
